A study of Ovis aries and Capra hircus and Bos taurus with 26 samples.

Results

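Cattle chromosome 26, sheep chromosome 22 and goat chromosome 26 are counterparts that match the long arm of human chromosome 10. All intervals of both histone marks on these 3 chromosomes were taken, whatever their strength, and they numbered 12264 peaks, 1.99% of the 616400 peaks of the series. They were called from ChIP-seq (sequencing of immunoprecipitated chromatin) of frozen liver from 9 healthy adult animals, which were Holstein cattle (3–4 years old), Texel sheep (2–3 years old) and Yunnan black goats (2–3 years old). The labels name no treatment. H3K27ac (acetylation of lysine 27 of histone H3) was profiled in 8 livers, cattle B and C, sheep A, B and C, and goats A, B and C, and H3K4me3 (trimethylation of lysine 4) in all 9. The study's methods state that reads were subsampled to a common number, but the lists carry no read numbers, so the depth of a library was not measured here. A library held 24809 to 50842 peaks in all, and the precision of each value rests on 2 or 3 animals per species and mark. Peaks in the 9 input libraries were not analysed here.

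The chromosomes carry many genes of liver metabolism. SCD encodes stearoyl-CoA desaturase, which makes monounsaturated fatty acids, and the CYP2C genes encode cytochrome P450 enzymes that oxidise drugs and fatty acids. H3K4me3 marks the promoters of active genes, while H3K27ac marks active promoters and active enhancers alike. An H3K27ac peak without H3K4me3 is therefore the usual sign of an enhancer in such data.

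No annotation of the 3 genome builds was used, so no gene was placed on the coordinates given here, no sequence is shown, and the labelled tissue was not checked against liver marker genes. The order of genes was read from another sheep assembly, ARS-UI_Ramb_v3.0, where chromosome 22 lists 381 protein-coding genes. Of 20 genes of liver function that were looked up, 19 were found by symbol. In that order, LIPA (lysosomal acid lipase) was the 36th gene and RBP4 (the retinol carrier of plasma) the 67th. CYP2C18 and CYP2C19 were the 76th and 81st. ABCC2 (a bile export pump) was the 136th, SCD the 145th, CYP17A1 (steroid 17-hydroxylase) the 190th, and GPAM (the first enzyme of glycerolipid synthesis) and ACSL5 (an acyl-CoA synthetase) the 229th and 232nd. CYP2E1, which oxidises ethanol, was the 380th, one gene from the end.

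H3K27ac peaks outnumbered H3K4me3 peaks on the chromosome in every species. Cattle 26 held 797 and 931 H3K27ac peaks in animals B and C and 554, 485 and 525 H3K4me3 peaks in animals A, B and C. Sheep 22 held 866, 795 and 872 H3K27ac peaks and 569, 638 and 616 H3K4me3 peaks. Goat 26 held 926, 1062 and 995 H3K27ac peaks and 495, 565 and 573 H3K4me3 peaks. The marks did not overlap in any species. The difference of the mean log2 numbers, turned back into a ratio, was 1.65 on cattle 26, 1.39 on sheep 22 and 1.83 on goat 26. Over the species the log2 difference averaged 0.69, a ratio of 1.61 (p = 0.00025, adjusted p = 0.0015, two-sided exact permutation test). This p is the smallest that the 4000 arrangements of mark labels within species allow, and it was adjusted over the 12 tests made. When the 20000 strongest peaks of each library were taken, the log2 difference shrank to 0.10 (p = 0.00325, the same exact test). These peaks were counted over the whole library, peaks off the autosomes included. The totals were therefore the same over whole libraries, but they were not made equal on the autosomes.

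H3K4me3 peaks were the wider ones. The median width on the chromosome was 453 to 495 bp in the 8 H3K27ac libraries and 665 to 866 bp in the 9 H3K4me3 libraries, without overlap. The log2 difference, H3K27ac minus H3K4me3, averaged -0.66 (p = 0.00025, adjusted p = 0.0015, two-sided exact permutation test). The goats had the widest H3K4me3 peaks, with medians of 840, 829 and 866 bp, above the 783 to 803 bp of their other autosomes. The group means of these medians were below those of the other autosomes on cattle 26 (722 against 751 bp) and sheep 22 (714 against 728 bp), with no test. Peaks with several summits made up 30.8% to 42.0% of the H3K4me3 peaks of a library and 20.0% to 27.04% of its H3K27ac peaks. The median fold enrichment over background, as the authors' peak caller gave it, was 6.23 to 7.34 for H3K4me3 and 3.70 to 3.89 for H3K27ac.

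**Figure D1:**
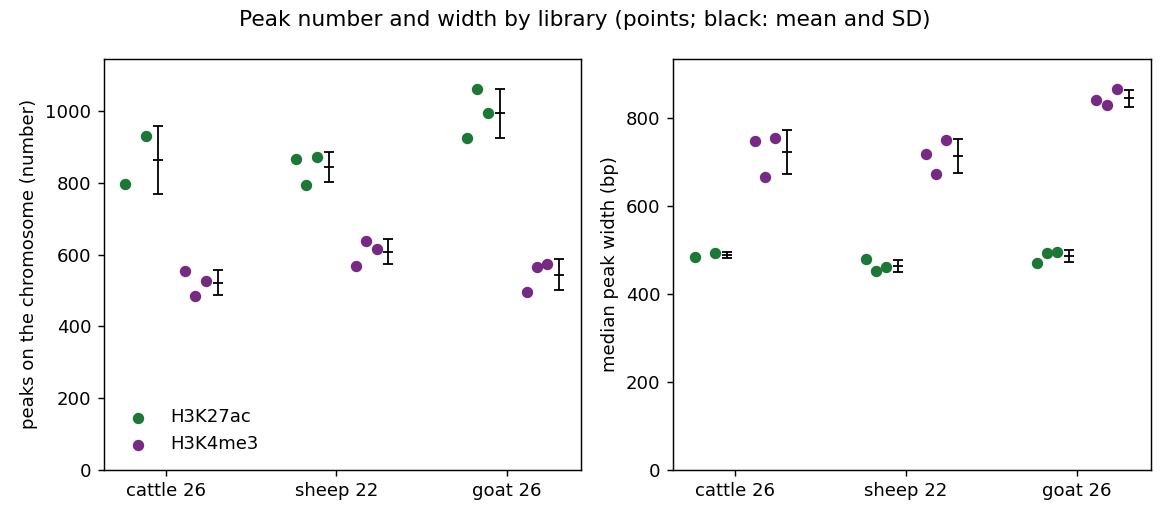
Number of peaks (left) and median peak width in bp (right) on cattle 26, sheep 22 and goat 26 for each H3K27ac library (green points) and H3K4me3 library (purple points), with the group mean and SD in black. In each species every H3K27ac library has more and narrower peaks than every H3K4me3 library, from 795 to 1062 against 485 to 638 peaks.

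Per length, the chromosomes were close to the rest of the genome, with slightly more H3K27ac. The last peak ended at 51.98 Mb on cattle 26, 55.67 Mb on sheep 22 and 51.42 Mb on goat 26, and this was taken as the length. H3K27ac density was 16.6 ± 1.82 peaks per Mb on cattle 26 (SD, n = 2). Sheep 22 had 15.2 ± 0.77 and goat 26 had 19.3 ± 1.32 (SD, n = 3 each). The other autosomes of the same libraries had means of 16.3, 14.3 and 18.0 peaks per Mb. The log2 ratio to the other autosomes averaged 0.081, a ratio of 1.06, and it was above 0 in 7 of 8 animals, with cattle B the exception (p = 0.0156, adjusted p = 0.0313, two-sided exact sign-flip permutation test over 8 animals). This difference no longer passed the threshold against the median autosome (log2 ratio 0.035, p = 0.172) or for the 20000 strongest peaks (0.012, p = 0.555, the same exact test). Among the 26 to 29 autosomes the chromosome ranked 11th to 17th by H3K27ac density.

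H3K4me3 density was 10.03 ± 0.67 peaks per Mb on cattle 26, 10.9 ± 0.63 on sheep 22 and 10.6 ± 0.83 on goat 26 (SD, n = 3 each). The other autosomes had 10.1, 10.7 and 10.5. The log2 ratio averaged 0.0075, and no difference passed the threshold (p = 0.344, adjusted p = 0.413, two-sided exact sign-flip permutation test over 9 animals). The animals' ratios ran from -0.026 to 0.047.

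Between species, H3K27ac density was highest on goat 26 and lowest on sheep 22, a log2 difference of 0.35. The exact permutation test of F over the 3 species gave p = 0.0357, which rose to 0.0589 after adjustment and so did not pass the threshold. For the 20000 strongest peaks this difference was 0.13 (p = 0.00357 before adjustment, the same exact test). The other autosomes had the same order of H3K27ac density, with means of 18.0 peaks per Mb in goats, 16.3 in cattle and 14.3 in sheep. The order was thus not particular to these chromosomes. H3K4me3 density differed by at most 0.12 on the log2 scale, between sheep and cattle (p = 0.379, adjusted p = 0.413, exact permutation test of F). For the 20000 strongest peaks sheep fell below cattle, by -0.10 (p = 0.0143, the same exact test).

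Peaks were spread very unevenly along the chromosomes, and the pattern recurred in the 3 species. For this description each chromosome was cut into 50 parts of 2% of its length. In cattle and sheep, peaks were sparse in the first parts and dense from about 16% onwards. In goats the sparse end was the last one. Across the 50 parts, the mean H3K27ac numbers of cattle and goats correlated with Pearson's r = -0.08 in the order of the builds and with r = 0.86 when goat 26 was read backwards. The H3K4me3 values were -0.17 and 0.84. Goat 26 is therefore described from its end in what follows, so that all positions run from the sparse end. Of the 29 autosomes that carry the same number in cattle and goats, 12 correlated better reversed in both marks, 17 better as written, and 0 gave different answers for the 2 marks. These correlations are over parts of a chromosome that share libraries and base composition, so they carry no p.

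Cattle and sheep followed each other less closely at this scale, with r = 0.51 for H3K27ac and 0.72 for H3K4me3. Sheep and reversed goat gave 0.50 and 0.73. With 25 parts in place of 50, the 3 pairs of species reached 0.85 to 0.93 for H3K27ac and 0.88 to 0.90 for H3K4me3.

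**Figure D2:**
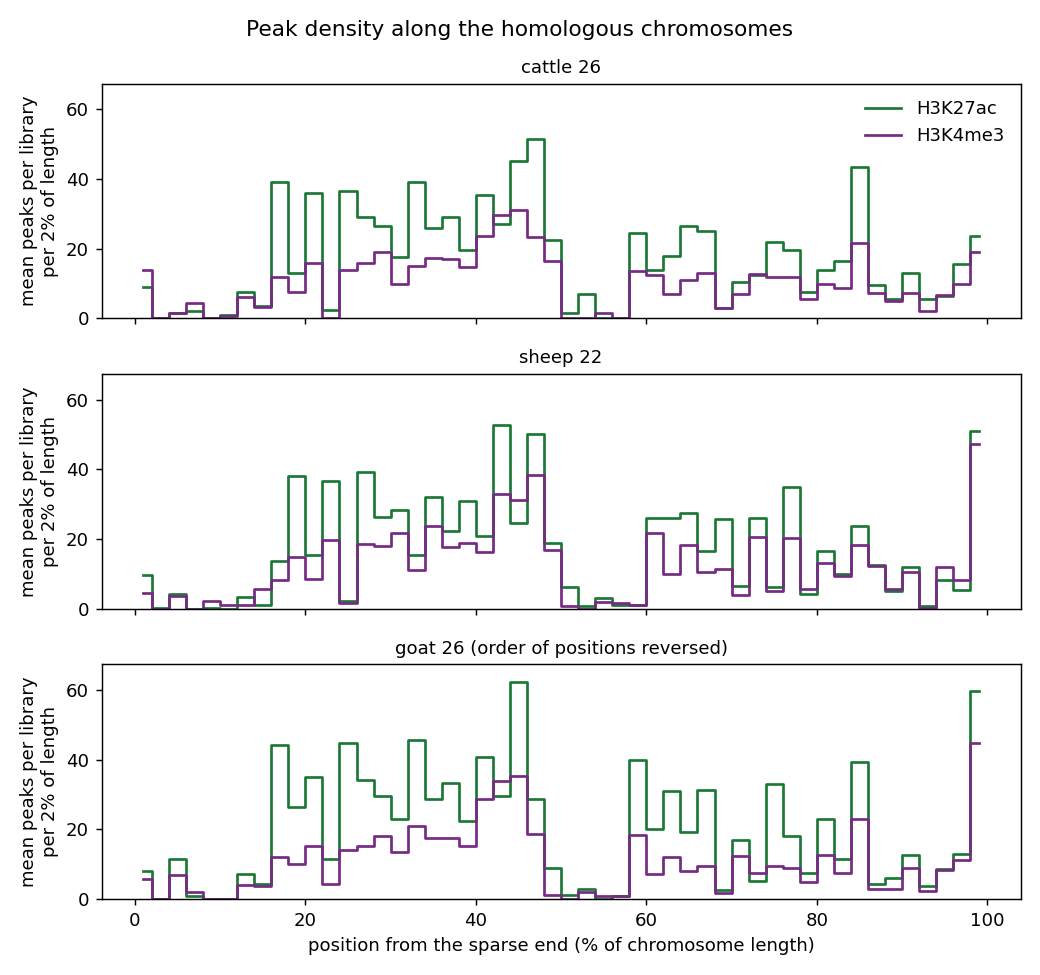
Mean number of peaks per library (vertical axis) in 50 equal parts of each chromosome against the distance from the sparse end in percent of length, for H3K27ac (green) and H3K4me3 (purple), with goat 26 drawn in reverse. All 3 chromosomes show a sparse start, a dense block up to about 50%, a trough that begins near 50% and ends at 58% in cattle and goats and at 60% in sheep, and a more uneven second part.

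Boundaries at 14%, 52%, 58% and 60% of the length were set after the profiles had been seen, and the values between them are given as a description. The sparse first stretch held 2.43% of the H3K27ac peaks of cattle 26, 2.13% of sheep 22 and 2.82% of goat 26. The dense block from 14% to 52% held 57.9%, 56.3% and 55.8% of them, at 25.3, 22.5 and 28.4 peaks per Mb. The trough from 52% to 58% held 0.81%, 0.55% and 0.40%. The next part, from 58% to 60%, was dense in cattle and goats, with means of 24.5 and 40 H3K27ac peaks, and still sparse in sheep, with 1 peak. The remaining 40% of the length held 36.1%, 40.9% and 36.9%. Of the H3K4me3 peaks, 54.9%, 53.5% and 54.4% lay in the dense block. The first stretch held 5.12% of them in cattle, over 2 times its share of H3K27ac peaks, against 2.08% in sheep and 3.43% in goats.

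The longest stretches without a peak of either mark in any library lay at the sparse end and a little past the middle. The first and second longest were within the first 12.3% of the length from the sparse end, though in goats the longer one was the farther from the end. In cattle they were chr26:766268-2807909 (2.04 Mb) and chr26:3826971-5373631 (1.55 Mb). In sheep they were chr22:1137750-3007108 (1.87 Mb) and chr22:3291411-4827210 (1.54 Mb). In goats they were chr26:45094998-47826207 (2.73 Mb) and chr26:48943913-50968914 (2.03 Mb).

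The third longest stretch fell between 54.9% and 59.9% of the length of each chromosome. It was chr26:28782507-30184512 in cattle (1.40 Mb), at 55.4% to 58.1% of the length. It was chr22:32281843-33334368 in sheep (1.053 Mb), at 58.0% to 59.9%, and chr26:21819986-23192122 in goats (1.37 Mb), at 54.9% to 57.6%. On this relative scale the sheep and goat stretches did not overlap. Stretches over 500 kb without a peak numbered 13 on cattle 26, 17 on sheep 22 and 8 on goat 26, and they made up 22.9%, 25.4% and 17.4% of the chromosome.

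The opposite end was dense in sheep and goats but less so in cattle. Its last 1 Mb held 42, 52 and 46 H3K27ac peaks in sheep A, B and C, 54, 57 and 51 in goats, and 22 and 22 in cattle B and C. The H3K4me3 peaks there numbered 37, 47 and 44 in sheep, 35, 39 and 44 in goats, and 21, 15 and 20 in cattle. The cattle values did not overlap those of the other species in either mark. The megabase at the sparse end held 9 and 9 H3K27ac peaks in cattle, 8 to 12 on sheep 22 and 7 to 10 on goat 26. H3K4me3 showed 13 to 15 peaks there in cattle against 4 to 6 in sheep and goats.

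In bins of 1 Mb, counted from the start of the chromosome as the build gives it, the bin profiles of animals of one species and mark correlated with r = 0.963 to 0.986. Every H3K27ac library had more peaks than every H3K4me3 library in 33 of 52 bins on cattle 26 (63.5%), against 59.2% of the bins of all cattle autosomes. On sheep 22 this held in 23 of 56 bins (41.1%), and over all sheep autosomes in 41.8%. On goat 26 it held in 37 of 52 bins (71.2%), with 62.9% over all goat autosomes. The shares on cattle 26 and sheep 22 were near the background and that of goat 26 was above it, with no test. For the 20000 strongest peaks the shares of such bins fell to 13.5% on cattle 26, 14.3% on sheep 22 and 25% on goat 26.

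The reverse order, with every H3K4me3 library above every H3K27ac library, held in 3 bins of cattle 26, 6 of sheep 22 and 3 of goat 26, where the background was 7.99%, 8.44% and 4.28%. Most of these bins were poor in peaks. In cattle they were 0–1 Mb, 3–4 Mb and 28–29 Mb, and in goats 23–24 Mb, 29–30 Mb and 47–48 Mb. In sheep they were 6–7, 8–9, 16–17, 24–25, 52–53 and 53–54 Mb.

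A bin near the end of the dense block came first in cattle and sheep and shared the first place in goats, where the terminal bin had the same mean number of both marks together. In cattle, bin 23–24 Mb held 45 and 51 H3K27ac peaks and 32, 32 and 30 H3K4me3 peaks. In sheep, bin 23–24 Mb held 52, 53 and 56 H3K27ac peaks and 24, 31 and 25 H3K4me3 peaks. In goats, bin 28–29 Mb held 55, 66 and 55 H3K27ac peaks and 31, 34 and 39 H3K4me3 peaks. These bins are centred at 45.2%, 42.2% and 44.6% of the length. The next in rank were 21–22 and 24–25 Mb in cattle and 25–26 and 24–25 Mb in sheep. In goats, the terminal bin, 0–1 Mb, at 99.0% of the length, equalled bin 28–29 Mb with a mean of 93.3 peaks of both marks, and bin 30–31 Mb followed. The terminal bin held 54, 57 and 51 H3K27ac peaks and 35, 39 and 44 H3K4me3 peaks.

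Within this block, 1 bin of cattle 26, 2 bins of sheep 22 and 1 bin of goat 26 had 20 or more promoters but 5 or fewer enhancers. They were picked out after their values were seen. Here an enhancer is an H3K27ac region found in at least 2 animals without any overlap by an H3K4me3 region found in at least 2 animals, and a promoter is such a region with at least 50% of its length covered by H3K4me3. On sheep 22, bin 24–25 Mb had 22 promoters and 3 enhancers, with 26, 24 and 28 H3K27ac peaks and 35, 34 and 36 H3K4me3 peaks. The bin before it had 24 promoters and 27 enhancers, and the bin after it 25 and 10. Sheep bin 21–22 Mb had 22 promoters and 4 enhancers, but there every H3K27ac library, with 29, 28 and 30 peaks, was above every H3K4me3 library, with 20, 24 and 24. On goat 26, bin 29–30 Mb had 23 promoters and 5 enhancers, with 30, 28 and 27 H3K27ac peaks and 33, 35 and 34 H3K4me3 peaks. Its neighbours had 29 and 18 promoters and 24 and 23 enhancers. On cattle 26, bin 21–22 Mb had 20 promoters and 5 enhancers. Its neighbours had 9 and 13 promoters and also few enhancers, 7 and 5, while bin 24–25 Mb, further along, had 13 promoters and 20 enhancers, the most of the chromosome. In cattle the marks overlapped in bin 21–22 Mb, with 32 and 39 H3K27ac peaks and 31, 25 and 32 H3K4me3 peaks. The bins are centred at 41.4% (cattle), 38.6% and 44.0% (sheep) and 42.6% (goats) of the length.

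In goats the largest enhancer number was reached nearer to the start of the dense block. In sheep it was reached both there and near the end of the block. Sheep bin 15–16 Mb had 27 enhancers and 11 promoters, the same number of enhancers as bin 23–24 Mb. Goat bin 38–39 Mb had 29 enhancers and 13 promoters. These bins are centred at 27.8% and 25.1% of the length. Along the 50 parts, enhancer numbers correlated with r = 0.74 between cattle and goats, 0.24 between cattle and sheep and 0.27 between sheep and goats, and promoter numbers with 0.86, 0.68 and 0.68. By rank, Spearman's rho was 0.85, 0.42 and 0.50 for enhancers and 0.86, 0.69 and 0.65 for promoters, in the same order of pairs.

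**Figure D3:**
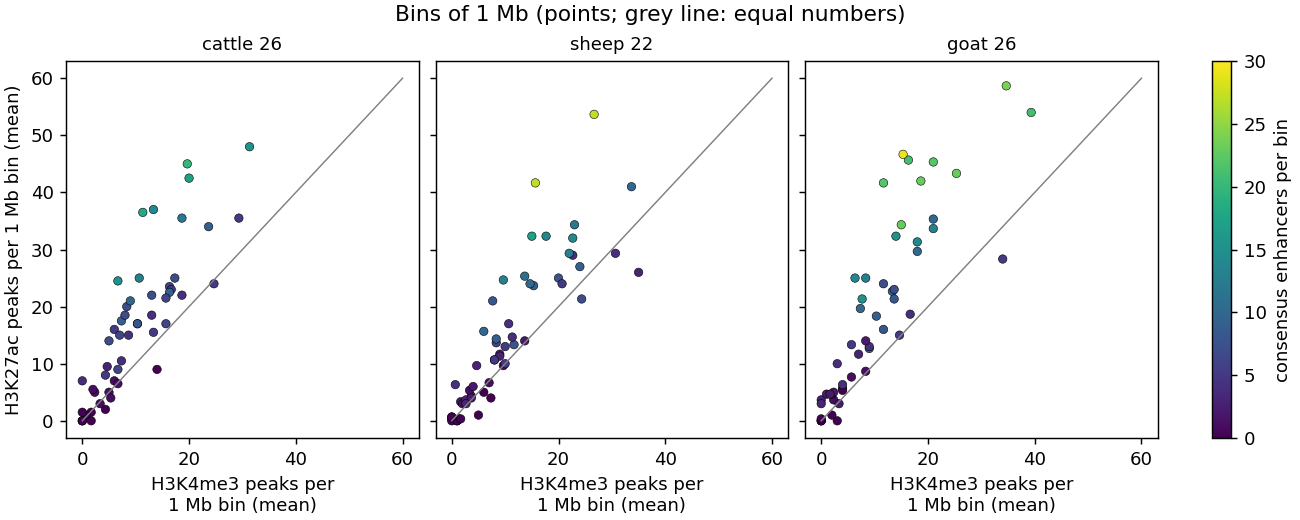
Each point is a bin of 1 Mb, with the mean number of H3K4me3 peaks (horizontal axis) and H3K27ac peaks (vertical axis) over libraries, coloured by the number of enhancers found in at least 2 animals, and the grey line marks equal numbers. Most bins lie above the line, while the crowded bins on or under it, such as sheep 24–25 Mb and goat 29–30 Mb, have 3 and 5 enhancers.

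Many of the H3K27ac peaks carried no H3K4me3 of the same animal. The share was 54.7% in cattle B (436 peaks) and 57.9% in cattle C (539). It was 50.8%, 42.8% and 47.0% in sheep A, B and C (440, 340 and 410 peaks). It was 52.6%, 53.9% and 52.9% in goats A, B and C (487, 572 and 526 peaks). The sheep had the lowest mean, 46.9% ± 4.02 (SD, n = 3), against 53.1% ± 0.67 in goats (SD, n = 3) and 56.3% ± 2.26 in cattle (SD, n = 2). The difference between cattle and sheep was 9.44 percentage points. The exact permutation test of F over the 3 species gave p = 0.0393, which became 0.0589 after adjustment and did not pass the threshold.

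In every animal this share was higher on the chromosome than on its other autosomes, where it was 53.1% and 55.5% in cattle, 47.4%, 40.6% and 45.3% in sheep, and 49.8%, 51.1% and 48.3% in goats. The excess ran from 1.60 to 4.56 points and averaged 2.68 (higher in 8 of 8 animals, p = 0.00781, adjusted p = 0.0188, two-sided exact sign-flip permutation test). This p is the smallest that 8 animals allow. The chromosome was not at the top of the range: it ranked 7th to 14th among the autosomes of its animal. Against the median autosome, in place of all other autosomes pooled, the excess was 1.11 points (p = 0.00781, the same exact test). All the alternatives that were tried kept this result past the threshold, with an excess of 1.11 to 2.83 points. Conversely, 63.6% to 78.2% of the H3K4me3 peaks of an animal overlapped its H3K27ac peaks.

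**Figure D4:**
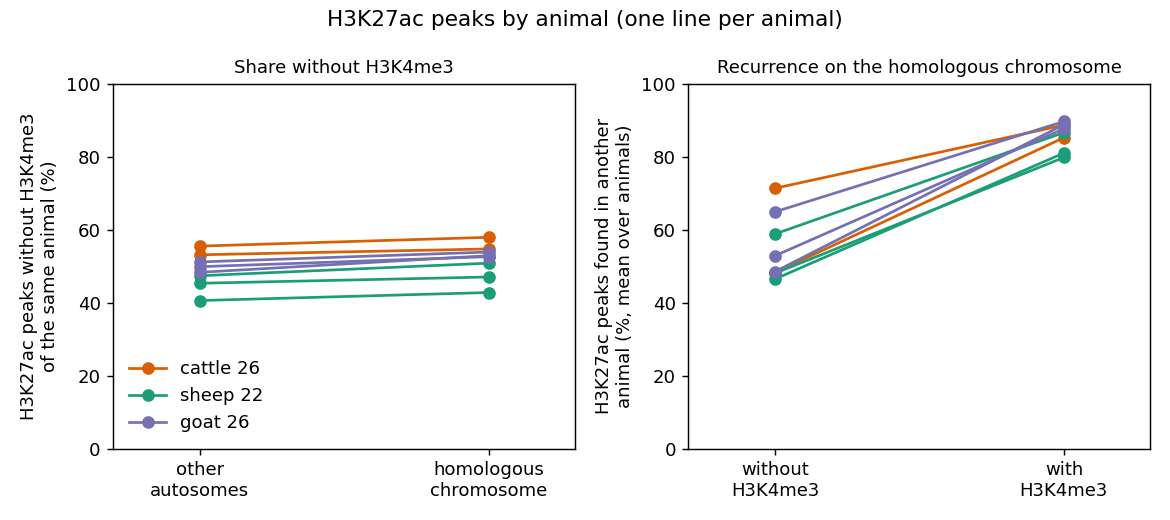
Left, percentage of H3K27ac peaks without H3K4me3 of the same animal on the other autosomes and on the homologous chromosome. Right, percentage of the chromosome's H3K27ac peaks found in another animal, for peaks without and with H3K4me3. Each line is 1 of 8 animals, and all 8 rise in both panels, by 1.60 to 4.56 points on the left and 17.3 to 40.3 points on the right.

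H3K27ac peaks recurred less often between animals than H3K4me3 peaks. A peak recurred in a further animal of the species when 1 peak there spanned at least 50% of its length, so animals served as each other's comparison. The mean share found was 79.2% and 63.8% for H3K27ac in cattle B and C, 63.5%, 74.7% and 64.9% in sheep, and 76.6%, 67.1% and 69.2% in goats. For H3K4me3 it was 73.3%, 92.8% and 81.3% in cattle, 87.0%, 80.1% and 77.4% in sheep, and 95.6%, 83.3% and 80.1% in goats. The marks overlapped in cattle. The difference averaged -13.4 points over the species (p = 0.00325, adjusted p = 0.013, two-sided exact permutation test). In each of the 6 groups, the library with the fewest peaks on the chromosome had the highest share. For the 20000 strongest peaks of each library, peaks off the autosomes included, the difference was -13.3 points. The part of peak number in the difference between the marks was not tested.

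In the main setting, no difference in recurrence between the chromosome and the other autosomes passed the threshold. The difference averaged -0.042 points for H3K27ac (p = 0.930, adjusted p = 0.930, two-sided exact sign-flip permutation test over 8 animals), with a range of -1.79 to 1.37. For H3K4me3 it averaged -1.07 points (p = 0.105, adjusted p = 0.141, the same exact test over 9 animals). It was -2.64, 0.46 and -2.45 in cattle A, B and C, -3.28 to -1.44 in the sheep and 0.23 to 1.34 in the goats. A rule that asks for 50% of both peaks moved the H3K4me3 difference to -1.94 points, past the threshold (p = 0.0313, the same exact test). For the 20000 strongest peaks it was -1.16 points, also past the threshold (p = 0.0430, the same exact test). Both p are before adjustment.

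H3K27ac peaks without H3K4me3 recurred less often than those with it. Of the H3K27ac peaks without H3K4me3, the share found in another animal was 71.3% and 48.2% in cattle B and C, 46.5%, 58.8% and 48.0% in sheep, and 64.9%, 48.5% and 52.9% in goats. Of those with H3K4me3 it was 88.6% and 85.2% in cattle, 81.0%, 86.6% and 79.8% in sheep, and 89.6%, 88.8% and 87.6% in goats. The 2 ranges did not overlap. The difference averaged -31.0 points (lower in 8 of 8 animals, p = 0.00781, adjusted p = 0.0188, two-sided exact sign-flip permutation test). The peaks with H3K4me3 were also the stronger ones once merged over animals, with a median fold enrichment of 5.35 to 5.80 against 3.70 to 3.77, and the part of peak strength in the difference was not tested.

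Regions found in at least 2 animals were then sorted into promoters and enhancers. Cattle 26 had 337 promoters and 302 enhancers among 654 H3K27ac regions, sheep 22 had 419 and 317 among 751, and goat 26 had 438 and 435 among 894. The remaining 15, 15 and 21 regions overlapped H3K4me3 in part. For the 20000 strongest peaks of each library, promoters numbered 234, 269 and 276 and enhancers 76, 108 and 109. Of the H3K27ac regions, 46.2%, 42.2% and 48.7% were enhancers, against 44.1%, 40.3% and 46.8% on the other autosomes, with 1 value per species and no test. Promoters were wider, with medians of 808, 725 and 819 bp, than enhancers, with 500, 509 and 519 bp. H3K4me3 regions without any H3K27ac region numbered 148 on cattle 26, 176 on sheep 22 and 122 on goat 26, which is 31.3%, 30.8% and 23.5% of the H3K4me3 regions. Cattle had only 2 H3K27ac libraries, so that a cattle H3K27ac region had to be found in both.

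Few enhancers lay close to an H3K4me3 region. The median distance to the nearest one was 24.8 kb on cattle 26, 22.1 kb on sheep 22 and 20.5 kb on goat 26. Enhancers within 5 kb of H3K4me3 made up 16.2%, 15.5% and 18.2%, and those beyond 100 kb numbered 35, 36 and 39. The most remote was 579 kb away on cattle 26, 1154 kb on sheep 22 and 956 kb on goat 26.

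The largest group of enhancers on cattle 26 had more members than any on sheep 22 or goat 26, over a longer span. When enhancers within 12500 bp were joined, the largest group in cattle had 12 members over 83.9 kb, at chr26:8919421-9003362. It held 13 to 15 H3K27ac peaks in each animal and 0 or 1 H3K4me3 peaks, and the fold enrichments of its members were 2.05 to 3.89, while the median of all enhancers on the chromosome was 3.70. The next largest group of cattle 26 had 4 members. In sheep the largest group had 6 members over 24.99 kb (chr22:23293120-23318104), with 1 to 6 H3K27ac peaks per animal, and the next had 5. In goats a group of 7 members over 25.7 kb (chr26:16892479-16918187) shared the first place with another of 7.

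The strongest regions carried both marks. They were ranked within each library by the q-value, and the poorest rank over libraries decided. On sheep 22 the first H3K27ac region was chr22:25073083-25074858 (1776 bp), with fold enrichments of 8.75, 8.54 and 8.19 for H3K27ac in animals A, B and C and 11.4 to 11.99 for H3K4me3. On goat 26 it was chr26:29222736-29224278 (1543 bp), with 8.43 to 9.97 for H3K27ac and 10.7 to 11.1 for H3K4me3. They lie at 45.0% and 43.2% of the length, in the dense block. The other strong H3K27ac regions were chr22:45508766-45510249 and chr22:45137954-45139958 in sheep and chr26:12228684-12230405 and chr26:33702503-33704108 in goats, with 6.21 to 10.2 for H3K27ac.

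On cattle 26 the first 2 regions stood apart from the rest. Region chr26:25967434-25967808 was only 375 bp wide and had fold enrichments of 32.6 and 32.1 for H3K27ac in cattle B and C and 34.5, 34.6 and 32.5 for H3K4me3 in cattle A, B and C. Region chr26:153141-153594 was 454 bp wide, with 28.2 and 28.05 for H3K27ac and 26.02, 24.5 and 23.9 for H3K4me3. Both had nearly the same enrichment in the 2 marks and in all animals, and the second lies in the bin 0–1 Mb at the sparse end. The third, chr26:38319606-38320649, had 10.4 and 12.3 for H3K27ac and 9.83 to 9.96 for H3K4me3. Whether these 2 regions carry both histone marks or are an artefact of the assembly was not tested, and the inputs were not used here. Their place as the strongest regions of cattle 26 is subject to this doubt.

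Apart from the narrow regions of cattle 26, the strongest H3K4me3 regions had fold enrichments of 10.6 to 18.8. In sheep the first was chr22:19634823-19636075, with 15.8, 13.7 and 14.2 for H3K4me3 in animals A, B and C and 5.98, 6.27 and 6.80 for H3K27ac. The second was chr22:14802863-14803875, with 15.4 to 16.2, and the third chr22:25182825-25184019, with 10.6 to 12.2. In goats the first was chr26:12694628-12696005, with 14.6, 15.2 and 14.1 for H3K4me3 and 6.49, 6.23 and 9.27 for H3K27ac. The second was chr26:38533175-38534233, with 15.3 to 17.1, and the third chr26:28367932-28368976, with 14.1 to 15.2. In cattle the first 2 were the same narrow regions as for H3K27ac, and the third was chr26:23835722-23837070, with 14.1, 14.1 and 18.8.

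The widest regions were not the strongest. The widest H3K4me3 region measured 3064 bp in cattle (chr26:8455363-8458426), 3099 bp in sheep (chr22:36053187-36056285) and 3178 bp in goats (chr26:28448408-28451585), with fold enrichments of 3.68 to 5.25. The widest H3K27ac region measured 2319 bp in cattle (chr26:23263669-23265987), 3129 bp in sheep (chr22:25852703-25855831) and 2971 bp in goats (chr26:42409722-42412692). Its fold enrichment ran from 3.001 to 4.83 over the libraries. All 6 overlapped a region of the other mark.

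The strongest H3K27ac regions without an H3K4me3 region were weaker than the strongest promoters. In sheep it was chr22:23846621-23847406, with fold enrichments of 6.32, 4.84 and 5.93 and 0 H3K4me3 peaks in any animal. In goats it was chr26:30632334-30633154, with 5.48, 5.68 and 5.98, where 1 of 3 H3K4me3 libraries, that of goat C, had a peak (7.45). In cattle it was chr26:39189697-39190538, with 4.94 and 8.50, where 1 of 3 H3K4me3 libraries, that of cattle C, had a peak (4.45). The sheep and goat regions lie at 42.8% and 40.4% of the length, in bins that are among the 3 densest of their chromosomes.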

How the data were processed

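Chromatin of frozen liver was immunoprecipitated for H3K27ac (Abcam ab4729) and H3K4me3 (Abcam ab85850). Per the methods and the submitters' processing notes, the authors trimmed reads with Trim Galore 0.4.0, aligned them with BWA-MEM 0.7.17, removed duplicates with Picard 2.25.0, subsampled the reads and called narrow peaks per library with MACS2 2.1.1 at q under 0.01. The builds are ARS-UCD1.2 (cattle), Oar_rambouillet_v1.0 (sheep) and ARS1 (goats) per the methods. The notes of every sample list ARS-UCD1.2 alone. The methods describe the inputs as controls for artefacts of shearing and amplification. Whether they served as background in peak calling is not given in the sources used here.

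The deposited lists give positions, a fold enrichment (a ratio to background), and p-values and q-values as −log10 (lowest −log10 q 2.00). The score column that the authors' caller wrote into the deposited lists follows −log10 q and was not used. Summits with the same start and end were merged, keeping their highest values. Fold and q only ranked, filtered or described peaks, and the deposited p-values were not used. The methods state the number of reads kept per library, but the lists hold no read numbers, so the depth was not checked here and no counting interval is given. P-values measure the spread between animals only.

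Members, lists and tests were chosen with earlier results of these data known. Marks were compared by permuting mark labels within species (4000 arrangements), species by permuting F (560 or 1680), and the chromosome with the other autosomes by flipping each animal's sign (256 or 512). All tests are exact and two-sided (F has no direction), with 0.05 as the threshold and Benjamini-Hochberg adjustment over 12 tests. The regions named are the 3 of each species and mark whose poorest rank by −log10 q was best and the widest one, plus the 3 densest bins, the bin with most enhancers, the longest peak-free stretch and the largest enhancer group. Other stretches, and the strongest enhancer, were added after their values were seen.

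Alternatives were q under 1e-05, the 20000 strongest peaks, merging within 500 bp, other overlap rules and bin sizes, the median autosome, all animals, leaving out each animal and, added after seeing the data, density without division by length. The animal letter marks 1 liver, as the titles give it, and so pairs the marks. Over 8 animals, the marks' deviations from their group means in log2 peak number gave Pearson's r = 0.45 (exact permutation p = 0.319). Spearman's rho was 0.31 (exact permutation p = 0.486), and r was -0.14 without the 2 animals farthest from the median. Python 3.11.15, numpy 2.4.6, pandas 2.3.3, scipy 1.17.1 and matplotlib 3.10.9 were used. The code was tested on simulated data and against bedtools 2.31.1.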

Additional observations from a re-analysis of the deposited data

Results flagged for a closer look

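Of 9 contrasts compared between the 3 species, of which 3 were differences between the marks, 2 passed the threshold before adjustment, and 0 passed it after adjustment over the 9 (adjusted p = 0.113 for both, exact permutation test with Benjamini-Hochberg adjustment). The log2 difference in peak number, H3K27ac minus H3K4me3 of the same animal, was 0.77 ± 0.08 on cattle 26 (SD, n = 2), 0.47 ± 0.15 on sheep 22 and 0.87 ± 0.06 on goat 26 (SD, n = 3 each; p = 0.0179, exact permutation test of F over 560 arrangements). The log2 difference in median width was -0.54 ± 0.11 on cattle 26 (SD, n = 2), -0.62 ± 0.07 on sheep 22 and -0.80 ± 0.04 on goat 26 (SD, n = 3 each; p = 0.025, the same exact test).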

How the results depend on the processing

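Of 160 tests repeated under alternatives, 131 kept their direction and their side of the threshold, judged by the p before adjustment, and of 59 region counts and bin percentages without a test 45 stayed within 1.5 times. The tests of peak number, peak width and recurrence by mark, of the H3K27ac share without H3K4me3 against the other autosomes and of the recurrence of such peaks did so under all alternatives that were run. With the replicate block, which pairs the marks of an animal, the log2 difference was 0.70 in peak number and -0.67 in width and the recurrence difference -14.8 points (p = 0.00781 each, exact sign-flip permutation test). The block kept these 3 calls, the only ones it was run on. H3K4me3 density against the other autosomes turned to -0.0018 (q under 1e-05), -0.0025 (20000 strongest peaks) and -0.0030 (median autosome), and H3K4me3 density by species (sheep minus cattle) to -0.10 (20000 strongest). H3K27ac recurrence against the other autosomes turned to 0.28 points (50% of both peaks) and 0.27 (median autosome), and ran from -0.40 to 0.16 with 1 animal left out. H3K27ac density against the other autosomes fell short of the threshold at 0.012 (20000 strongest) and 0.035 (median autosome). H3K27ac density by species, which passed before adjustment alone, no longer did at 0.39 (q under 1e-05), at 0.23 (not divided by length) and without cattle C or any sheep or goat (0.30 to 0.40 over all 9 runs, p up to 0.105). The share without H3K4me3 by species, likewise, no longer did at 2.11 points (20000 strongest), 8.44 (no H3K4me3 of any animal) and without cattle C, goat A, B or C (7.39 to 11.4 points over all 9 runs). H3K4me3 recurrence against the other autosomes passed it at -1.16 points (20000 strongest) and -1.94 (50% of both). There were 183 enhancers on cattle 26, 178 on sheep 22 and 269 on goat 26 at q under 1e-05, 76, 108 and 109 for the 20000 strongest peaks, and 184 in sheep and 274 in goats when all animals were required. Promoters numbered 269 in sheep and 276 in goats for the 20000 strongest. The percentage of bins with H3K27ac above H3K4me3 was 25 in sheep at q under 1e-05, and 13.5, 14.3 and 25 in cattle, sheep and goats for the 20000 strongest. No share over the bins of all autosomes is given at these settings. The causes were not tested. Recurrence by mark without cattle B or C was not run, since 1 cattle H3K27ac library remained. Depth was not measured here, so what it limits for weak peaks was not tested.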
